A study of Mus musculus with 8 samples.

Results

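The 10 genes described here were the AP-1 subunit genes Fos, Fosb, Fosl1, Fosl2, Jun, Junb and Jund, the immediate early genes Egr1 and Ier2, and Myc. Their m6A (N6-methyladenosine) peaks were taken as the entries that carry one of these gene names in 4 lists of m6A peaks. There were 29 such peaks among 38705 in all, on 10 of 9779 genes with a listed peak, and after joining peaks that overlapped by at least 1 bp they formed 14 of 21168 regions. The lists came from mouse embryonic fibroblasts (MEFs), primary cells of the C57BL/6 strain, wild type, taken on embryonic day 13.5 and used at passages 5 to 6. The control cells were left in full growth medium, and the starved cells were kept for 2 h in nutrient-deprived medium. In each group 2 replicates were profiled by MeRIP-seq, in which polyA RNA fragments are pulled down with an m6A antibody (IP) and sequenced beside an unselected input library, so that the 8 samples held 4 IP and 4 input libraries. The labels do not say whether the replicates were separate cultures, and the study's supplement calls them biological replicates. The study asked how m6A on mRNA changes under nutrient deprivation. The comparison made here was the peak of each gene in starved against control libraries.

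AP-1 is a pair of basic leucine zipper proteins, a JUN protein joined to a FOS protein or to another JUN, that binds DNA and switches on growth and stress genes. Fos, Jun, Egr1, Ier2 and Myc belong to the immediate early response, genes that fibroblasts transcribe within minutes of serum or growth factor addition and whose mRNAs decay quickly. m6A is a mark placed on adenosines of mRNA, mostly in the sequence RRACH (R is A or G, H is A, C or U) of which GGAC is the most frequent form, and it is read by proteins that affect the decay and translation of the transcript. Such peaks cluster around stop codons and in long internal exons.

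For Myc, regions over the coding exons were listed in each control library but not in the starved ones. Junb and Ier2 had a peak in all 4 libraries. The Junb peak had a higher fold enrichment in both starved libraries (35.82 and 15.32) than in both control libraries (7.76 and 5.87), and the Ier2 values of the groups overlapped. Jun had a peak in 3 libraries, Fosl2 in 3, Egr1 in 2, and each of Fos, Fosb, Fosl1 and Jund in 1. Fold enrichment is the ratio of IP to local input signal that the peak caller gave for a peak, and with 2 libraries against 2 the smallest two-sided p of an exact permutation test is 0.33, so no difference below could pass 0.05.

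The GGAC nearest to the centre of each gene's best-covered region is given with 10 bases on either side, to show where on the transcript the listed peaks lay. The region was the one with most libraries and, at equal number, with the highest fold enrichment. The sequences are from RefSeq transcripts on GRCm38 (the assembly of mm10), read on the transcribed strand, 5′ to 3′ as DNA, with GGAC in capitals. A match is a sequence and no mapped site, since a peak is far longer than the motif. None is given for Egr1.
Fos, chr12:85473996-85474019, plus strand, 5′ UTR: gtctacccctGGACcccttgccgg
Fosb, chr7:19303574-19303597, minus strand, 3′ UTR: aaatatttttGGACtagcatactt
Fosl1, chr19:5447913-5447936, plus strand, 5′ UTR: ccgccaacgcGGACcctaccgaac
Fosl2, chr5:32153242-32153265, plus strand, 3′ UTR: cccttcccagGGACcagcaccttt
Jun, chr4:95051085-95051108, minus strand, coding: ccaagaactcGGACcttctcacgt
Junb, chr8:84977818-84977841, minus strand, coding: accgccgtcgGGACtgggagctca
Jund, chr8:70699818-70699841, plus strand, coding: ccatcgacatGGACacgcaagaac
Ier2, chr8:84661730-84661753, minus strand, 3′ UTR: ttgcgtcatgGGACagacgcgggt
Myc, chr15:61987907-61987930, plus strand, coding: tcatcatccaGGACtgtatgtgga
The GGAC lay from 1 to 69 nt from the centre of the region's peaks in these genes except Jun, where it was 257 nt away. All of them lay inside a region as joined over the libraries. The Myc GGAC lay inside the control replicate 1 peak but in the gap between the separate peaks of control replicate 2, so that library listed no peak over it.

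The 4 lists held between 8974 and 10103 peaks each. The median fold enrichment of a control list was 12.21 or 12.27, and that of a starved list 14.58 or 14.69. The peak caller's score grows as the p-value falls (10 times the negative log10 of p) and stops at 3100, which 15.1% of control and 28.2% of starved peaks reached. Over the 2257 regions that every library listed, the mean of the library medians was 0.21 higher on the log2 scale in the starved group. The files give no read counts, so the depth is unknown and no counting error of a peak could be given. Only 25.6% to 28.4% of the peak numbers that the caller had given out were in each list. The study's methods keep peaks on mRNA exons, and why single numbers were missing was not tested. A listed peak is no measure of RNA level. Of 17 fibroblast marker genes, 11 had a peak in any library, among them Pdgfra, Pdgfrb, Twist1, Prrx1 and Fbn1 in all 4, while Vim, Col1a1, Dcn, Lum, S100a4 and Sparc had none. Of markers of other cells, 3 of 6 epithelial, 2 of 4 endothelial, 1 of 5 blood, 2 of 4 neural and 1 of 3 muscle genes had a peak in any library, none of them in all 4. In such bulk samples fewer cells of a type and less RNA per cell cannot be told apart.

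**Figure D1:**
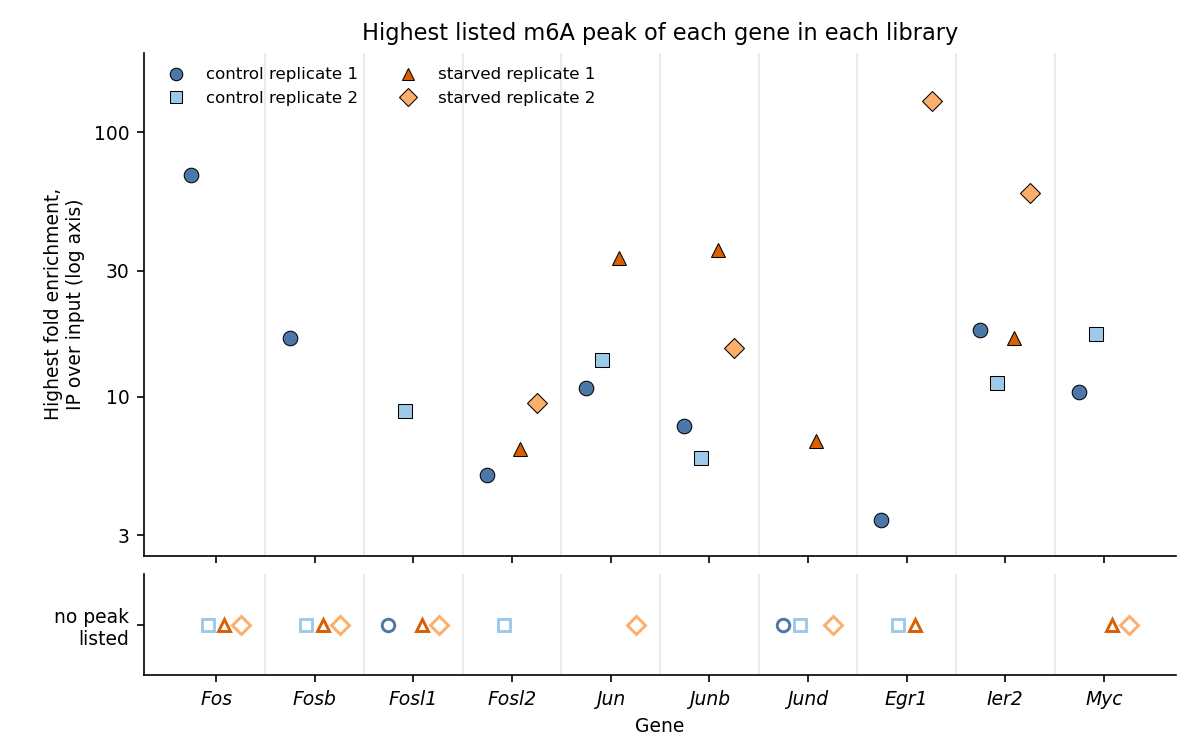
Highest fold enrichment of IP over input among the listed peaks of each gene (vertical axis, log scale) in the 2 control and 2 starved libraries, 1 symbol per library. Open symbols in the lower strip are libraries with no listed peak. Junb and Ier2 have 4 filled symbols, and both starved symbols of Myc are open.

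By group, the 10 genes had 9 and 8 peaks under control conditions and 7 and 5 after starvation. The means were 8.5 ± 0.707 and 6 ± 1.41 peaks (SD, n = 2), a difference of -2.5 (exact permutation test, two-sided, p = 0.33). The number of genes with a peak was 8 and 5 for control and 5 and 4 for starved cells, with means of 6.5 ± 2.12 and 4.5 ± 0.707 (SD, n = 2) and a difference of -2 (exact permutation test, two-sided, p = 0.67). The lists as a whole were shorter in the starved libraries too (9757 and 8974 against 10103 and 9871 peaks). Of the 9 genes with a peak in either control library, 4 had one in both (Jun, Junb, Ier2 and Myc), and of 6 in either starved library, 3 had one in both (Fosl2, Junb and Ier2). Over all genes with a peak the shares found in both libraries of a group were 53.6% and 52.1%. Of the 14 regions, 7 were listed in 1 library, 3 in 2, 2 in 3 and 2 in all 4. Over all 21168 regions 56.2% were listed in 1 library and 10.7% in all 4. Of the 10 genes, 2 had a peak in all 4 libraries and 4 in 1 library only, against 29.2% and 27.9% of all genes with a peak.

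Myc encodes a transcription factor that drives growth and cell division, and its gene (chr15, plus strand) has 3 exons, and the second and the last of them carry the main coding sequence. In control replicate 1 a peak over the second exon lay at chr15:61987422-61988278 with fold enrichment 8.41 and score 779.95. Control replicate 2 had separate peaks there, at chr15:61987422-61987871 (fold enrichment 11.48, score 1054.12) and at chr15:61988079-61988278 (fold enrichment 17.22, score 2615.89). The first base, 61987422, and the last, 61988278, which is the end of the exon, were thus the same in both libraries. The first base lay before the start of the exon in the transcript used here. Of the 857 nt of the control replicate 1 peak, 772 were on the transcript. Over the last exon, which holds the stop codon, the peak in control replicate 1 lay at chr15:61989346-61990299 with fold enrichment 10.44 and score 842.95. In control replicate 2 it lay at chr15:61989346-61990302 with fold enrichment 7.86 and score 494.03. The centres of this pair lay at -84 and -82 nt from the stop codon. A further peak was in the first exon, in the 5′ UTR, in control replicate 2 only, at chr15:61985626-61985951 (fold enrichment 13.99, score 1242.85). The listed peaks covered 71.9% of the 2399 nt transcript in control replicate 1 and 77.0% in control replicate 2.

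Neither starved library listed a Myc peak. The regions of the second and the last exon were thus 2 of the 14 regions with a peak in both control and in neither starved library, a pattern of 4.15% of all regions. Myc was 1 of the 10 genes with that pattern at gene level, against 4.56% of all genes. None of the 14 regions, and none of the 10 genes, had a peak in both starved and in neither control library, a pattern of 3.20% of regions and 3.19% of genes. The Myc peaks were of middling strength, at or above 32.3% to 62.2% of the folds of their own list. In control replicate 1 their false discovery rates were 21.1% and 20.5%, so that at a rate under 20% neither region was listed in both control libraries. Between the nearest listed peaks on either side of Myc, 26 and 27 peak numbers were unlisted in the starved libraries, over 3296 and 3268 kb, and 15 and 23 in the control libraries, so the numbers do not show whether the caller had numbered a peak at Myc. The input reads were not analysed here, and a transcript too scarce to be called and a transcript without enrichment cannot be told apart either.

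**Figure D2:**
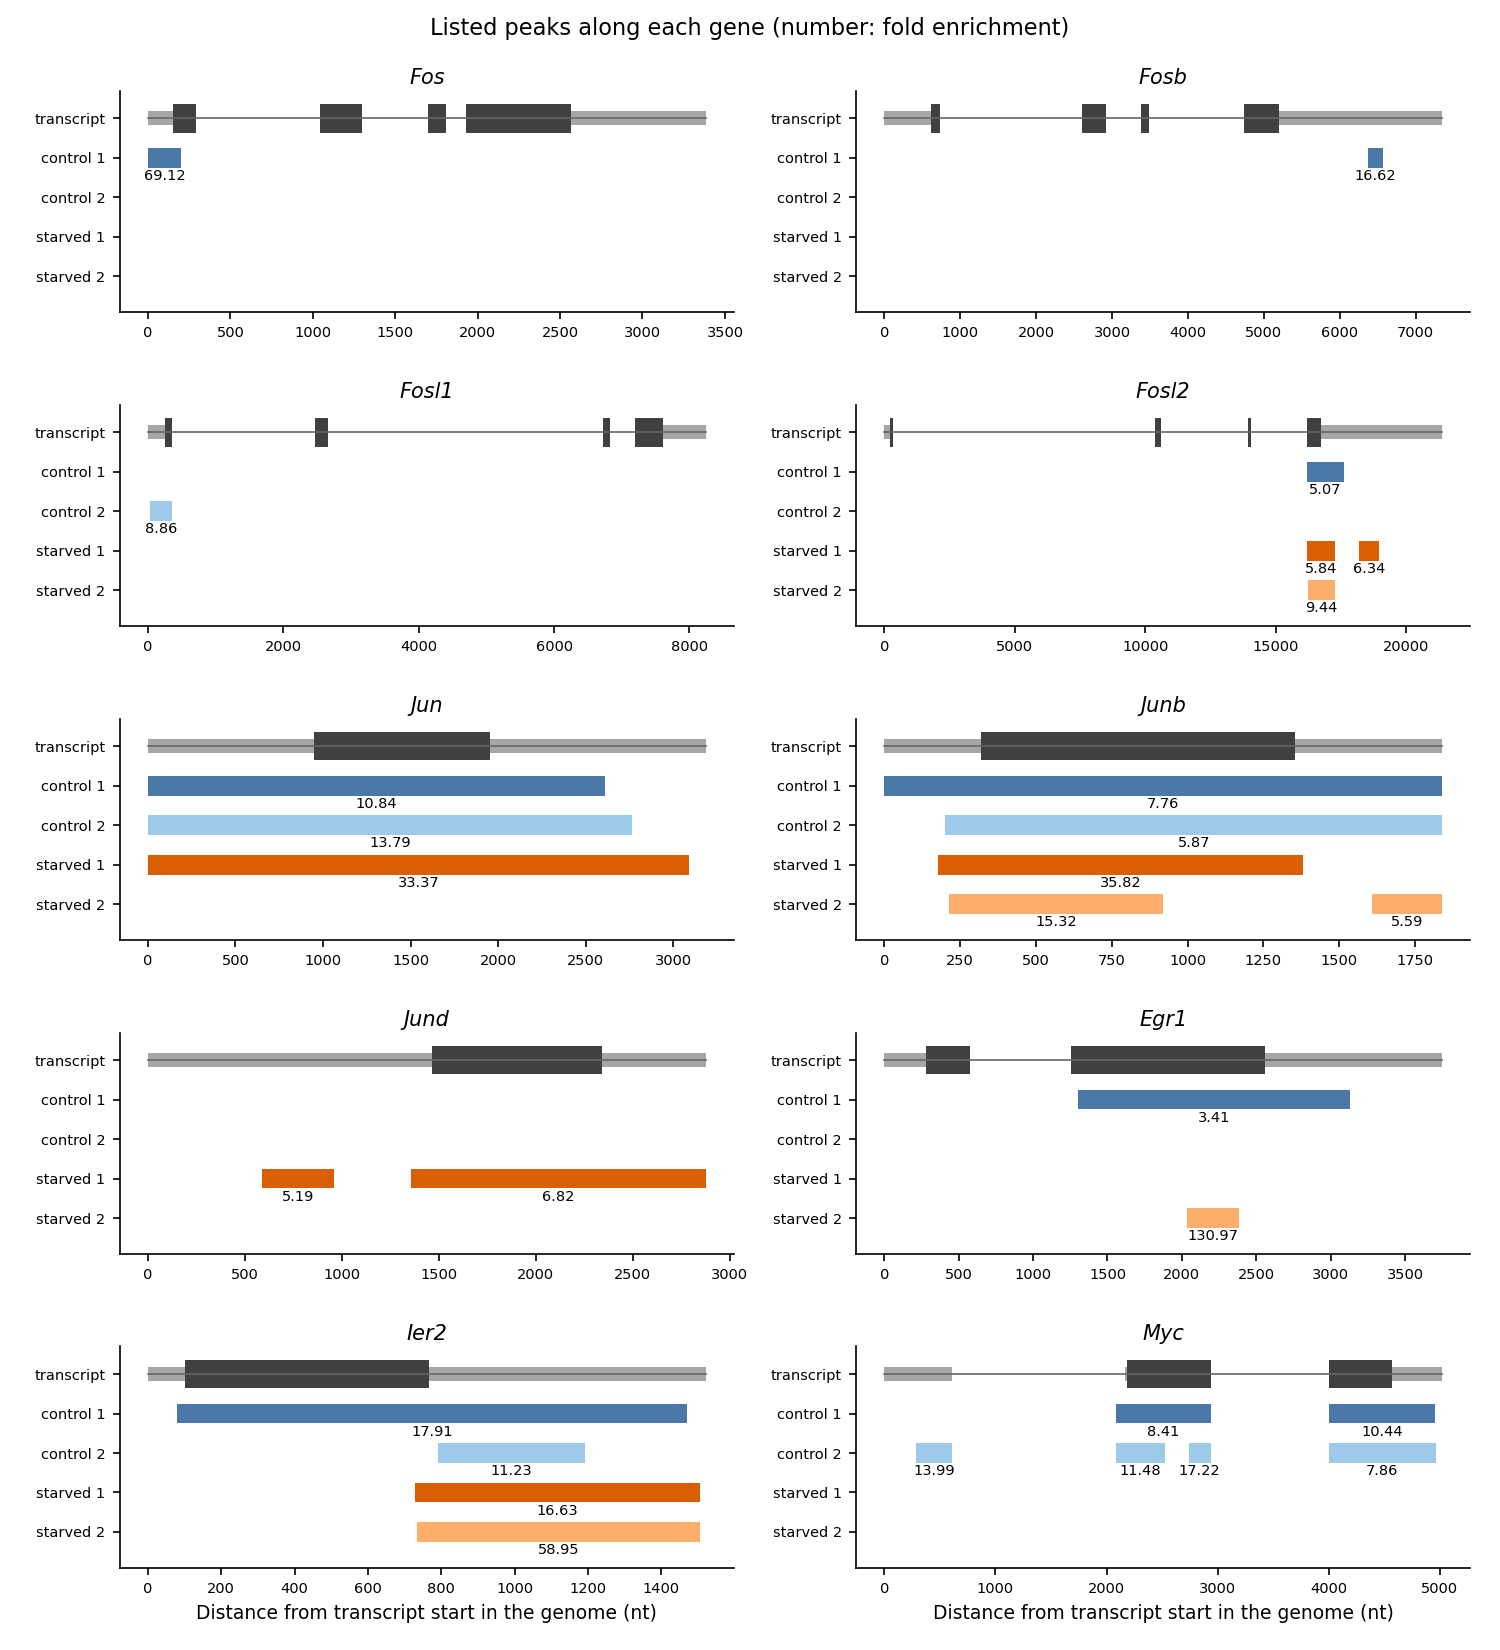
Listed peaks of the 10 genes in each library (coloured bars, with fold enrichment) against the distance from the transcript start in the genome (horizontal axis, nt). Above them the RefSeq transcript is drawn with exons in grey, coding sequence in dark grey and introns as a line. The Jun and Junb peaks run over most of their single exon, and the Myc rows of both starved libraries are empty.

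Junb encodes a JUN subunit that often holds back JUN activity, and its gene on chr8 (minus strand) has a single exon of 1840 nt. In control replicate 1 the peak covered the whole transcript (chr8:84976909-84978748) with fold enrichment 7.76 and score 250.98. In control replicate 2 it lay at chr8:84976909-84978547 with fold enrichment 5.87 and score 703.66. In starved replicate 1 it lay at chr8:84977368-84978572 with fold enrichment 35.82 and a score at the limit of 3100. Starved replicate 2 had a peak at chr8:84977828-84978536 with fold enrichment 15.32 and score 1690.03. It also had a second, weaker one at the 3′ end, at chr8:84976909-84977140, with fold enrichment 5.59 and score 249.97. Both starved libraries were above both control libraries in their highest value, and the listed length was smaller, 65.5% and 51.1% of the transcript against 100% and 89.1%. The mean log2 fold enrichment was 4.55 ± 0.87 in starved and 2.75 ± 0.28 in control libraries (SD, n = 2), a difference of 1.80 (exact permutation test, two-sided, p = 0.33). After dividing by each library's median over shared regions the difference was 1.58. Junb was the 1 of the 2 member regions listed in all 4 libraries whose starved values were both above both control values, an order shown by 22.9% of all such regions and, at gene level, by 23.4% of genes. The reverse order, shown by 15.6% of genes, was seen in neither Junb nor Ier2. The Junb peak of control replicate 1 (38.8%) and the weaker one of starved replicate 2 (36.2%) had high false discovery rates.

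Ier2, a short immediate early gene on chr8 (minus strand) whose product has been described as a transcriptional regulator, has a single exon of 1522 nt. Its peak in control replicate 1 lay at chr8:84661381-84662774 with fold enrichment 17.91 and score 1901.38. In control replicate 2 the peak was shorter, at chr8:84661659-84662062, with fold enrichment 11.23 and score 1432.44. In starved replicate 1 it lay at chr8:84661348-84662124 with fold enrichment 16.63 and score 1381.13. The starved replicate 2 peak was at nearly the same place, chr8:84661347-84662117, with fold enrichment 58.95 and a score at the limit of 3100. That library was thus high, and the other 3 lay between 11.23 and 17.91. The starved peaks both covered the 3′ part of the transcript, 51.1% and 50.7% of it, with centres 352 and 356 nt after the stop codon. In control replicate 1 the peak covered 91.6% and in control replicate 2 26.5% of the transcript. The mean log2 fold enrichment was 4.97 ± 1.29 in starved and 3.83 ± 0.48 in control libraries (SD, n = 2), a difference of 1.14 (exact permutation test, two-sided, p = 0.67). Without starved replicate 2 it was 0.23, and without starved replicate 1 it was 2.06.

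**Figure D3:**
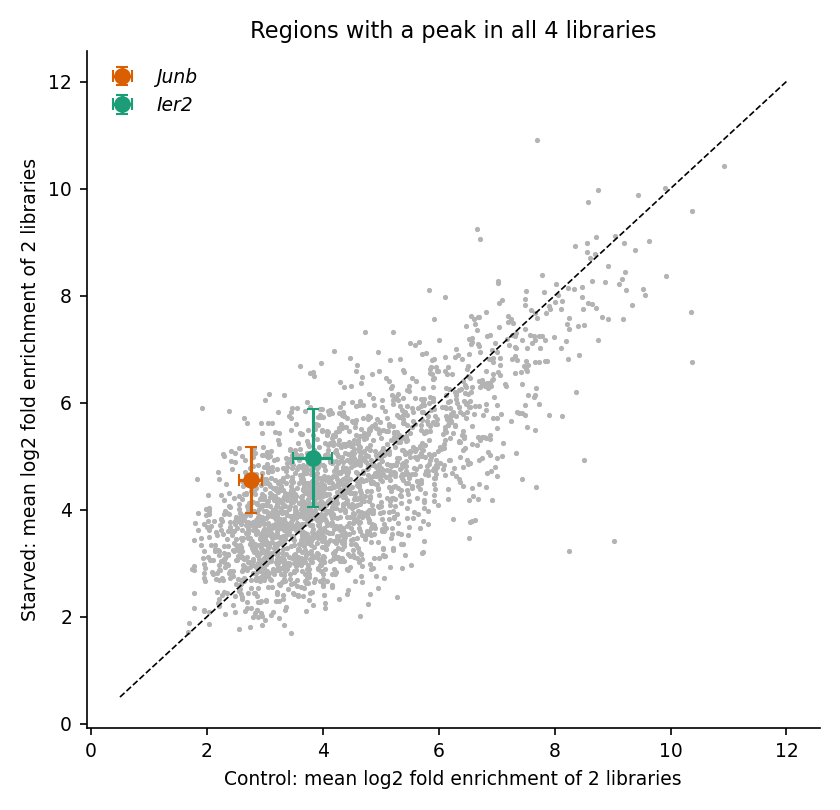
Mean log2 fold enrichment of the 2 starved libraries against that of the 2 control libraries for the 2257 regions that every library listed (grey points). The Junb and Ier2 regions are coloured, with bars from the lower to the higher library, and the dashed line marks equal values. The Junb region lies 1.80 above the line and the Ier2 region 1.14, within the cloud of all regions.

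Jun, the founding JUN subunit of AP-1, is a single-exon gene of 3187 nt on chr4 (minus strand). Its peak in control replicate 1 lay at chr4:95049610-95052222 with fold enrichment 10.84. In control replicate 2 it lay at chr4:95049457-95052222 with fold enrichment 13.79. In starved replicate 1 it lay at chr4:95049134-95052222 with fold enrichment 33.37. All of these had scores at the limit of 3100, began at the 5′ end of the transcript and covered 82.0%, 86.8% and 96.9% of it. Starved replicate 2 listed no Jun peak, although 14 peak numbers over 3150 kb around the gene were unlisted there. The starved replicates thus disagreed on the presence of the peak, and no test was made.

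Jund, the JUN subunit that is present in resting cells, is a single-exon gene of 2878 nt on chr8 (plus strand). It had peaks in starved replicate 1 alone. The stronger lay at chr8:70699094-70700616, over the coding sequence and the 3′ UTR, with fold enrichment 6.82 and score 1792.05. The weaker lay in the 5′ UTR, at chr8:70698327-70698699, with fold enrichment 5.19, score 171.73 and a false discovery rate of 42.2%. In control replicate 1 the listed peaks on either side of Jund had consecutive numbers, so the caller had numbered no peak there at all. In control replicate 2 and starved replicate 2, 5 and 10 numbers were unlisted between the neighbours.

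Among the FOS subunits, Fosl2, whose protein is also called FRA-2, had the most peaks. It has 4 exons on chr5 (plus strand), and a long last exon holds the stop codon and the 3′ UTR. A peak that began in the last exon's coding part and ran over the stop codon was listed in control replicate 1 at chr5:32152671-32154084 (fold enrichment 5.07, score 390.17). In starved replicate 1 it was at chr5:32152671-32153740 (fold enrichment 5.84, score 582). In starved replicate 2 it was at chr5:32152692-32153738 (fold enrichment 9.44, score 305.08). Both starved values lay above the single control value, and control replicate 2 listed none. Within its own list the control replicate 1 peak stood at or above 15.7% of folds. The peaks of starved replicates 1 and 2 stood at or above 15.8% and 34.2%. The false discovery rates were 30.3% in control replicate 1, 21.5% in starved replicate 1 and 32.4% in starved replicate 2. The centres in the starved libraries lay 18 and 28 nt after the stop codon. Starved replicate 1 had another Fosl2 peak in the 3′ UTR at chr5:32154648-32155413 (fold enrichment 6.34, score 1136.27).

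The other FOS subunit genes each had 1 peak, in a single control library. The Fos peak, in control replicate 1, lay in the first exon at chr12:85473890-85474092, with fold enrichment 69.12 and score 1422.97. It began at the first base of the transcript, was centred in the 5′ UTR, covered 9.63% of the 2109 nt transcript and stood at or above 92.2% of the folds of its list. The Fosb peak, also in control replicate 1, lay in the 3′ UTR at chr7:19303473-19303672, with fold enrichment 16.62 and score 919.81. Its centre was 1271 nt after the stop codon. Fosl1 encodes FRA-1, and its peak, in control replicate 2, lay in the first exon at chr19:5447727-5448055 with fold enrichment 8.86, score 256.16 and a false discovery rate of 29.7%. In starved replicate 1 no peak number was unlisted between the listed neighbours of Fosl1, so the caller had numbered no first-exon peak there. In control replicate 1 and in starved replicate 2, 2 numbers each were unlisted.

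The last exons of Fosl1 also lay under peaks that the lists assign to Ccdc85b, a gene on the opposite strand. These were at chr19:5454340-5454686 (fold enrichment 15.37) and chr19:5454901-5456124 (6.8) in control replicate 1 and at chr19:5454735-5456250 (17.03) in control replicate 2. In the starved libraries they were at chr19:5454735-5455619 (11.97) and chr19:5454626-5455619 (40.38). The highest values per library, 15.37 and 17.03 (control) and 11.97 and 40.38 (starved), overlapped between groups. The peaks in control replicate 2 and in both starved libraries, and the second in control replicate 1, spanned the Fosl1 stop codon at base 5455306. The lists give no strand, so which of the overlapping genes the signal came from cannot be told apart, and these peaks are not counted among the 29.

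Egr1, a zinc finger transcription factor of the serum response with 2 exons on chr18 (plus strand), had the widest gap between libraries of the 10 genes. In control replicate 1 a long peak of 1830 nt at chr18:34862509-34864338 had fold enrichment 3.41, score 70.64 and a false discovery rate of 74.8%. In starved replicate 2 a peak of 352 nt at chr18:34863242-34863593, in the coding part of the second exon, had fold enrichment 130.97 and a score at the limit of 3100. The first was among the weakest in its list (at or above 4.31% of folds) and the second among the strongest (96.3%). Their centres lay at -343 and -349 nt from the stop codon. Control replicate 2 and starved replicate 1 listed no Egr1 peak, so that each group had 1 library with and 1 without it.

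Many of the peaks were long. The median length of the 29 peaks was 857 nt against 364 nt over all listed peaks, and 12 of 29 were longer than 1000 nt against 6.92% of all peaks. The longest were the Jun peaks, of 2613, 2766 and 3089 nt. An end of the peak fell on an exon end of its gene in 16 of the 29 and in 48.0% of all peaks on genes with a coding transcript. Jun, Junb, Jund and Ier2 have no introns. The peaks of these intronless genes were from 232 to 3089 nt long. The range in the genes with introns was from 200 to 1830 nt, with Fosl2, Egr1 and Myc over long internal or last exons. The fold enrichments of the 29 peaks ranged from 3.41 to 130.97, with a median of 10.8 against 13.3 over all peaks. Of the 29, 6 reached the score limit against 21.4% of all peaks, and 18 had a false discovery rate under 20% against 55.0%.

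**Figure D4:**
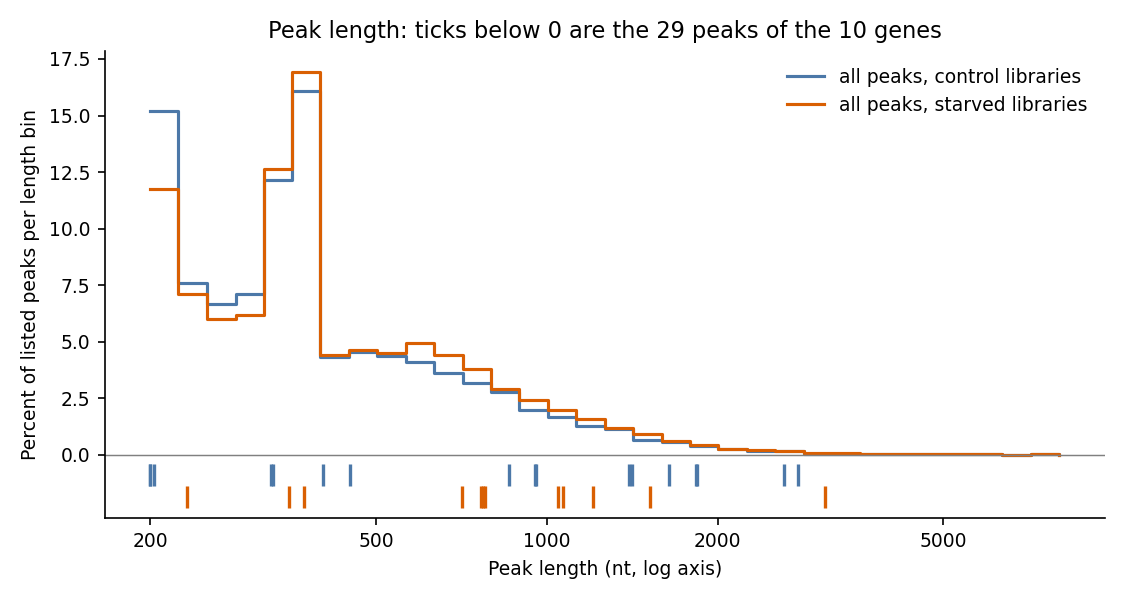
Share of listed peaks per length bin (vertical axis, percent) against peak length (horizontal axis, nt, log scale) in control (blue) and starved (orange) libraries. Ticks below 0 mark the 29 peaks of the 10 genes, 17 control and 12 starved, of which 12 are longer than 1000 nt.

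By the position of the peak centre, 4 of the 29 peaks lay in the 5′ UTR, 13 in coding sequence, 5 around the stop codon (100 nt on either side) and 7 in the 3′ UTR. In percent these were 13.8, 44.8, 17.2 and 24.1, against 4.79, 46.3, 12.1 and 36.7 over the 35252 peaks that could be placed on a coding transcript. With 200 nt on either side of the stop codon the shares around it were 20.7% and 21.0%, so the higher share of the 10 genes there was seen with the narrower window alone. The 5′ UTR peaks were those of Fos, Fosl1 and Jund and the first-exon peak of Myc. These segments held, in the same order, 3, 8, 3 and 3 of the 17 control peaks and 1, 5, 2 and 4 of the 12 starved ones. A window of 200 nt around the centre, along the spliced transcript, held GGAC in 22 of 29 peaks (75.9%) and in 63.9% of all placed peaks. With a window of 100 nt it was 19 of 29 (65.5%) against 41.4%, so the size of the gap depended on the window. The 29 peaks include repeated calls of the same regions. The 10 transcripts held 137 GGAC in 28352 nt, 4.83 per 1000 nt, against 4.16 over the 9339 genes with a peak and a coding transcript. GGAC was densest in Junb (8.15 per 1000 nt) and Ier2 (7.23) and sparsest in Egr1 (2.28). Pooled over the 10 transcripts, there were 5.98 inside the peaks and 3.53 per 1000 nt outside them. Junb had no sequence outside its peaks. In Myc the order was the reverse (5.35 inside, 5.81 outside), and the remaining genes had the higher density inside. For some of them this rests on little sequence. The peaks covered 96.9% of the Jun and 93.8% of the Ier2 transcript, which left few bases outside. The peaks of Fos and Fosb held 1 GGAC each.

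**Figure D5:**
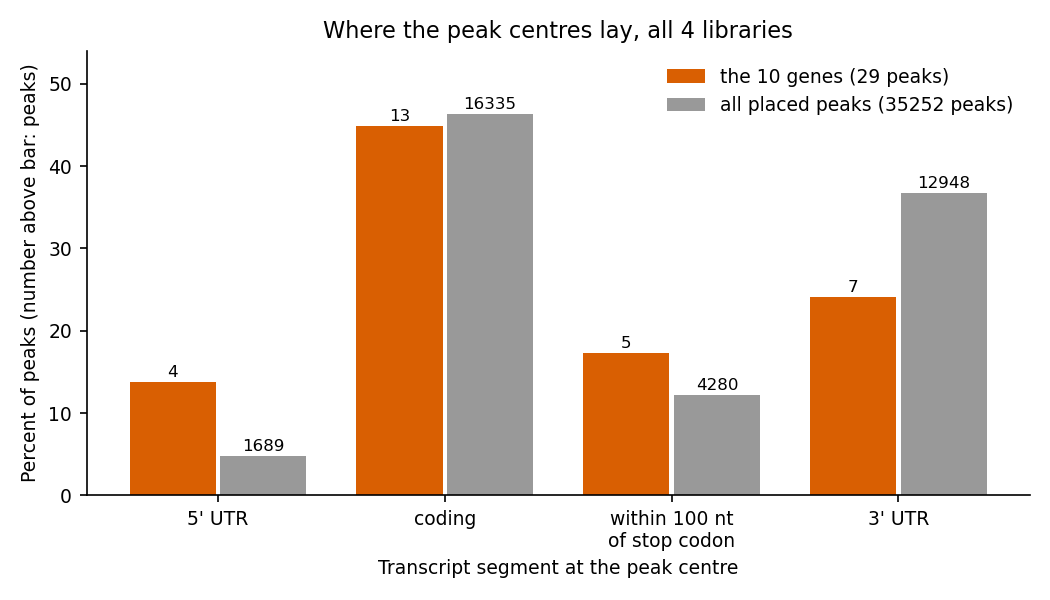
Percent of peaks (vertical axis) by the transcript segment that held the peak centre (horizontal axis), for the 29 peaks of the 10 genes (orange) and all 35252 placed peaks (grey), libraries pooled. Numbers above the bars are peaks, and the 5′ UTR held 4 of the 29 peaks.

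The wider families were counted in the same way. Of 21 other bZIP genes that can pair with or act beside AP-1 proteins, 16 had a peak in any library and 11 in all 4. Over all genes with a peak, 29.2% had one in all 4. In these 11, the highest fold enrichment was higher in both starved libraries for 3 and lower for 1, against 23.4% and 15.6% of all genes. Nfe2l2, the regulator of the antioxidant response, had values of 6.79 and 3.63 in control cells against 14.23 and 10.44 after starvation, a log2 difference of 1.30. Atf3, a stress-induced AP-1 partner, had 22.66 and 45.61 against 18.94 and 10.81, a log2 difference of -1.17. Mafg, a small MAF protein, had 24.9 and 15.05 against 26.45 and 33.26 (0.62), and Nfe2l1 had 21.52 and 25.11 against 29.04 and 28.85 (0.32). By region, 1 of the 16 genes had one in both starved and neither control library and 2 had the reverse, against 6.55% and 8.63% of all genes with a peak. The Mafg region lay at chr11:120627034-120627760 (26.45 and 30.07 in the starved libraries). Bach2 (32.18 and 28.85) and Mafk (8.1 and 11.73) had the regions found in the control libraries alone, and both genes had other peaks after starvation, with highest values of 266.51 and 16.36 for Bach2 and of 23.37 and 4.24 for Mafk.

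The MYC network holds MAX, the shared partner of MYC, and the MXD, MNT and MGA proteins that compete for it. Of 14 genes of this network, 11 had a peak in any library. In all 4 libraries 3 had one (Fbxw7, Mga and Mlxip), against 29.2% of all genes with a peak, and their groups overlapped. Mxd1, an antagonist of MYC, had a peak in both control libraries (58.19 and 13.62) and in neither starved library, as Myc and 4.56% of all genes did. By region, 3 of the 11 genes had one in both starved and neither control library and 2 had the reverse, against 6.55% and 8.63% of all genes with a peak. The former were Mxd4 (11.86 and 18.38), Mnt (3.5 and 3.18) and Mga (23.93 and 15.5). Elsewhere Mxd4 had a peak in control replicate 1 (16.87). Mnt had other peaks in control replicate 2 (15.56) and in both starved libraries, with highest values of 22.81 and 11.32. The reverse was seen in Mxd1 and in another Mga region (26.82 and 14.32 in control). Max itself had a peak in control replicate 1 (7.03) and in both starved libraries (8.06 and 11.49). Mycn (146.66) and Mycl (18.73), the other MYC genes, had one in control replicate 1 alone.

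Of 32 other immediate early and serum response genes, 26 had a peak in any library and 9 in all 4. Over all genes with a peak, 29.2% had one in all 4. In none of the 9 did the groups separate. At gene level, 3 of the 26 had a peak in both control and neither starved library, and 0 the reverse, patterns of 4.56% and 3.19% of all genes. These were Egr2 (4.7 and 10.17), a relative of Egr1, Btg2 (17.64 and 7.16), which restrains proliferation, and Zfp36 (6.67 and 20.73), which binds AU-rich mRNA. By region, 6 of the 26 genes had one in both control and neither starved library, a property of 8.63% of all genes with a peak, and 0 had the reverse, a property of 6.55%. Beside Egr2, Btg2 and Zfp36 these were Elk1 (12.1 and 5.55), Hbegf (20.15 and 12.62) and Trib1 (3.84 and 43.54). Elk1 and Trib1 had other peaks in starved replicate 2, and Hbegf had others in both starved libraries. These genes were counted with earlier results of the same libraries known, and no test was made over them.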

How the data were processed

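MeRIP-seq of control and starved MEFs gave 4 IP and 4 input libraries, grouped by their GEO titles. Peak lists of the 4 IP libraries were used, and the inputs entered through peak calling only. Per the submitters' processing notes and the study's methods, the authors aligned trimmed paired-end reads to mm10 with HISAT2 2.0.4, called peaks per IP library against its input with MACS2, and kept those that overlap mRNA exons. As deposited by the authors, a peak's fold value is the ratio between its IP signal and the local input background. The deposited score is minus 10 times log10 of the p-value, and the deposited false discovery rate is a percent. The authors' own table of differential sites (fold changes, p-values and directions between groups) was not used. 0 columns of per-sample values were unmapped.

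The 10 genes and the other gene lists were chosen with earlier results of these data known. The peaks of all 10 genes are named; of the other lists, genes with a region in both libraries of one group and neither of the other are, and up to 5 per list whose highest folds do not overlap between groups. Further genes named from those lists and the markers were chosen after their values were seen. Peaks that overlapped by 1 bp were joined over the 4 lists. Presence was counted per region and per gene, and log2 fold enrichment was compared by an exact two-sided permutation test of the 4 libraries. Lists hold no summit, so the peak centre replaced it in the segment and GGAC counts, made on the longest RefSeq coding transcript (GRCm38.p6) that holds it. Coordinates count from 1. The joining, counting and tests were tested on simulated data. Without read counts the depth per library, and so the precision of a single peak, is unknown. Alternatives were stricter peak sets, assignment by position, a larger overlap, rescaling, a length-weighted fold, other windows, a replicate block and leaving out each library. Python 3.11.15, pandas 2.3.3, numpy 2.4.6, pysam 0.24.0 and matplotlib 3.10.9 were used.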

Additional observations from a re-analysis of the deposited data

How the results depend on the processing

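Of 71 alternative values, 65 kept the direction or stayed within a range, not given here, of the reported one, and none reversed. These values were not all separate. The Junb and Ier2 alternatives were counted at region and at gene level with the same values. A replicate block cannot change a difference. With peaks at a false discovery rate under 20% alone, the peak difference was -1, the difference in genes with a peak per library was 0 and no region was listed in both control and neither starved library. Leaving out 1 library at a time, the peak difference ranged from -3.5 to -1.5 and the gene difference from -3.5 to -0.5. The number of regions listed in the control group alone ranged from 2 to 5 (5 without control replicate 1, 4 without control replicate 2, 3 without starved replicate 1), and in the starved group alone from 0 to 3 (3 without starved replicate 2, 1 without control replicate 1). With a library left out the pattern asks less of a region, so these counts could only stay or rise. The shares of all regions with these patterns are not given for the reduced sets. The Junb difference ranged from 1.18 to 2.41 and the Ier2 difference from 0.23 to 2.06. With the replicate number as a replicate block, differences were the same (-2.5 peaks, -2 genes, 1.80 for Junb, 1.14 for Ier2), with a smallest possible sign-flip p of 0.5. At a rate under 20% Junb was not listed in all 4 libraries and gave no value. With peaks assigned by position, the peak difference was -3. The cause of these changes was not tested. Depth is unknown, so it cannot be said which missing peaks a deeper library would list.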
